A study of Sus scrofa with 10 samples.

Results

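The genes described here are PRM1, PRM2, PRM3, TNP1, TNP2, HMGB4, BRDT and CCER1, which encode protamines, transition proteins and other chromatin proteins of male germ cells. They were chosen by name from the 27376 gene rows of the deposited table, and all 8 were found. QuantSeq, which counts transcripts at their 3′ ends, was run on polyA RNA of the pig (Sus scrofa), with 2 control testis libraries and 4 libraries from each of 2 kinds of graft. Testicular fibroblasts made up the FO grafts, and germ cells plus testicular fibroblasts the GF grafts. For both, primary cells mixed with Matrigel had been injected in dorsal skin of a mouse labelled SKID and were sampled 6 months after grafting, in a series on how germ cells affect the rebuilding of testis tissue. The mouse host's own cells may be present in a graft, and how their reads were treated is not given. Control testis is titled 5D, a code with no explanation, and its other labels repeat the cell type and growth protocol of the grafts, so the titles decide the group. Age and tissue of control testis and grafts cannot be told apart in these comparisons. No genotype, pig strain or animal is named. Nothing says whether a replicate is its own animal or culture, and each p-value therefore measures only library spread, which may be technical.

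During spermiogenesis, the haploid round spermatid turns into a sperm cell, and its histones are removed and replaced by smaller basic proteins. The transition proteins TNP1 and TNP2 take the place of histones for a time, and the arginine-rich protamines PRM1 and PRM2 then pack the DNA of the condensing nucleus. BRDT, a bromodomain protein that binds acetylated histones, is present from meiosis on, so it can be transcribed before the protamines are. HMGB4 is an HMG-box protein of germ cells, CCER1 is a nuclear protein of spermatids linked to the exchange of histones for protamines, and PRM3 lies in the protamine gene cluster but encodes an acidic protein that is not known to pack DNA.

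In the RefSeq annotation of Sscrofa11.1, the build that the submitters' processing notes also name, PRM1 (chr3:31861087-31861529), PRM2 (chr3:31864350-31864959), PRM3 (chr3:31865159-31866717) and TNP2 (chr3:31868517-31871530) lie next to each other within 10.4 kb of chromosome 3 with 0 other annotated genes between them. TNP1 lies elsewhere, at chr15:119037492-119038099, as do HMGB4 (chr6:90133911-90136413), BRDT (chr4:125004897-125062208) and CCER1 (chr5:91884005-91886280). HMGB4 lies within the span of CSMD2, and 199 bases separate PRM2 from PRM3. Strand use in counting is not stated, and these neighbours may share some counts.

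Total counts ranged from 2915534 to 7013911 per library, and 3 counts, the floor used for a gene at 0, correspond to 0.428 to 1.03 counts per 1000000 (CPM) in a single library. Levels are given as CPM after TMM scaling, with mean ± SD (n = 2 for control testis, n = 4 for each graft group), and a count at the 3′ end was not divided by gene length. GF 3 and GF 4 had the lowest totals and the most extreme scores (156 and 129) on principal component 1, with 46.3% of the variance. FO 1 and GF 3 held transcripts of skeletal muscle, with 574 and 121 CPM summed over 5 marker genes against 0 to 23.7 CPM in the other libraries. Marker genes of testis cells were present in the control libraries, with 4353 to 4871 CPM over 4 Sertoli cell genes and 13670 to 16285 CPM over 4 Leydig cell genes. FO grafts, labelled as testicular fibroblast, held 4615 to 8377 CPM of the Sertoli cell genes, of which CLU made up 5734 ± 1685 CPM. AMH, a hormone made by Sertoli cells, was at 12.9 ± 12.4 CPM in FO against 484 ± 53.6 CPM in control testis. WT1 and SOX9 went the other way. WT1 was at 463 ± 73.5 CPM in FO against 103 ± 0.777 CPM in control testis. SOX9 was at 258 ± 31.2 CPM against 186 ± 16.8 CPM, which did not pass the edgeR test (adjusted p = 0.189). AMH and WT1 did pass it (adjusted p = 3.09e-04 and 2.4e-04).

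All 8 genes rose in GF relative to FO, from levels at or near 0. PRM1 had 403, 2404, 2776 and 423 counts in GF 1 to GF 4, which are 86.4, 434, 958 and 146 CPM. In FO it had 10 counts in FO 1, 1 in FO 4 and 0 in FO 2 and FO 3. Every GF library therefore lay above every FO library, and PRM1 rose by 9.24 ± 1.12 (log2 fold change ± SE, edgeR quasi-likelihood test, adjusted p = 2.56e-04). PRM2 had 56, 529, 854 and 182 counts in GF 1 to GF 4, the last 3 of them 95.5, 295 and 62.9 CPM, and was seen as 2 counts, both in FO 1. Pooled over the groups it was 896-fold higher (95% counting interval 248 to 7401, edgeR adjusted p = 3.26e-04). PRM3 had 5.14, 31.2, 184 and 31.1 CPM in the GF libraries and 1 count in FO 1, a 905-fold difference (95% counting interval 162 to 35786, edgeR adjusted p = 6.70e-04). These intervals, and the floors used below for a group at 0, use group sums and cover counting error only, since reads without molecular identifiers are not independent molecules.

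The transition protein genes showed the same order of libraries as the protamines. TNP1 had 42.7, 279, 680 and 114 CPM in GF 1 to GF 4. It had 4 counts in FO 1 and 0 in the other FO libraries, and rose by 10.08 ± 1.16 (edgeR adjusted p = 2.18e-04). TNP2 was the lowest of the 8 genes in GF by its mean, at 22.1 ± 21.1 CPM, with 13, 141, 146 and 28 counts in GF 1 to GF 4. It was at 0 in all 4 FO libraries, so that against a floor of 3 counts over the group it was at least 121-fold higher (edgeR adjusted p = 0.00174).

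HMGB4, BRDT and CCER1 rose as well, with different spreads. HMGB4 had 13.3, 103, 139.8 and 41.5 CPM in GF 1 to GF 4 and 1 count in FO 1, a 1281-fold difference (95% counting interval 229 to 50624, edgeR adjusted p = 1.38e-04). BRDT had 42.2, 117, 131 and 46.7 CPM in the GF libraries. It had 2 counts in FO 2 and 1 in FO 3 and was 501-fold higher in GF (95% counting interval 171 to 2430.1, edgeR adjusted p = 5.24e-05). CCER1 had 3.21, 22.9, 189.5 and 10.4 CPM in GF 1 to GF 4 and 1 count in FO 1, a 797-fold difference (95% counting interval 143 to 31509, edgeR adjusted p = 0.00168). All 8 genes were called higher, where 17.6% of the 13782 tested genes were, and for all 8 the GF and FO libraries did not overlap, as was so for 17.8% of tested genes with GF higher. The genes passed the filter on low counts through the GF libraries, where they are high, so these counts do not support more than the single values do. In bulk tissue, fewer cells of a type and less RNA per cell cannot be told apart.

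**Figure D1:**
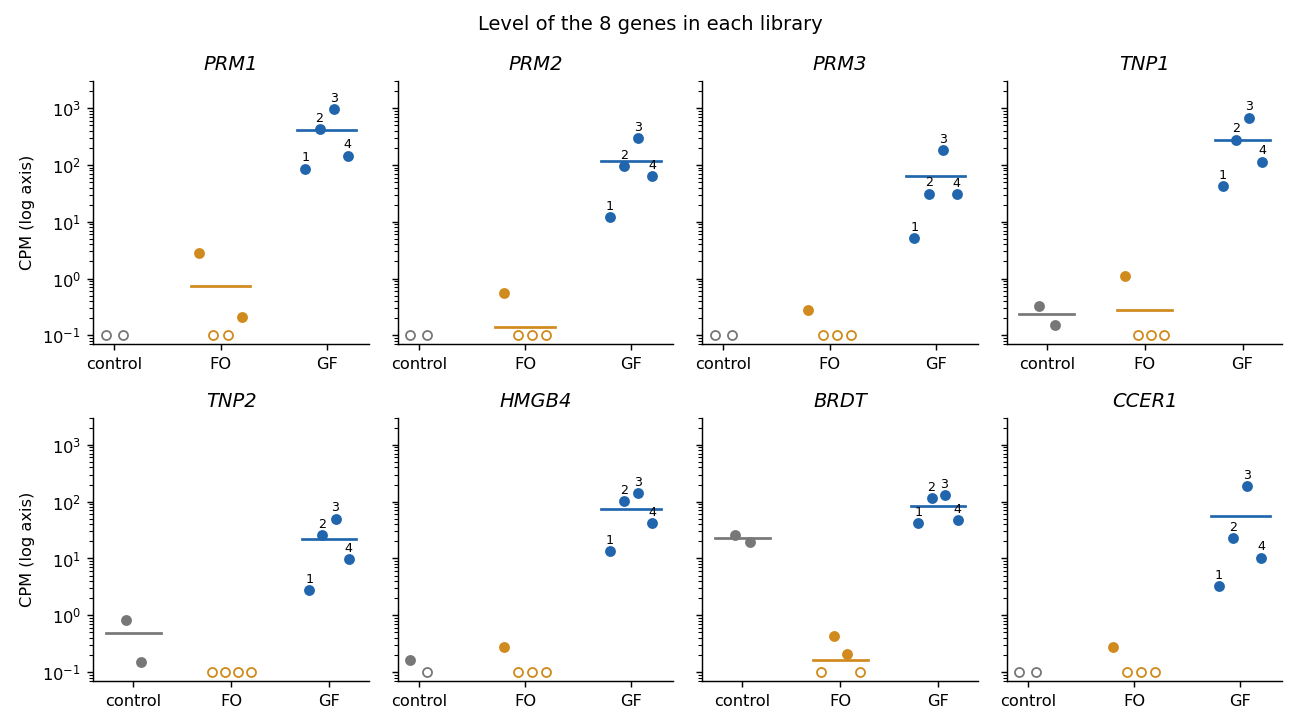
Level of each of the 8 genes in every library, as TMM-scaled CPM on a log axis, by group. Filled points are libraries with counts, open points at 0.1 are libraries with 0 counts, numbers are GF replicates and bars are group means of at least 0.1 CPM. In every panel the 4 GF libraries lie above the 4 FO libraries, GF 3 is highest and GF 1 lowest, and BRDT alone is well above 0 in control testis, at 25.7 and 19.5 CPM.

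The few counts in FO were mostly in 1 library. Without BRDT, the other 7 genes had 20 counts over the FO libraries, and 19 of these were in FO 1. Those 19 were 10 of PRM1, 4 of TNP1, 2 of PRM2 and 1 each of PRM3, HMGB4 and CCER1. Among genes of earlier germ cells, DDX4, a germ cell RNA helicase, had 2 counts in FO 1 against 9, 8 and 2 in FO 2 to FO 4. PIWIL1, a piRNA-binding protein, had 1 count against 6, 7 and 4. Both were picked from longer lists, in which ID4 was highest in FO 1, at 217 CPM against 106, 92.5 and 118. Summed spermatogonia markers were at 376 CPM in FO 1 against 322, 333 and 398, and spermatocyte markers at 41.0 against 41.3, 44.0 and 60.0. Round spermatid markers summed to 1.67 CPM in FO 1 against 1.52, 1.26 and 1.91, and elongating spermatid markers to 2.51 against 4.35, 3.36 and 2.97. FO 1 is also the library with the most skeletal muscle transcripts, and their part in these counts was not tested. With FO 1 left out, PRM1 was 5289-fold higher in GF (95% counting interval 949 to 208939), and the genes then at 0 were at least 1188-fold (TNP1), 476-fold (PRM2), 340.2-fold (HMGB4), 240.4-fold (PRM3) and 212-fold (CCER1) higher. With FO 2 left out, BRDT was 1111-fold higher (95% counting interval 199 to 43912).

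GF 3 carried the largest share of these transcripts. The 8 genes together took 0.0229%, 0.125%, 0.261% and 0.0454% of the counts of GF 1 to GF 4. All 8 were highest in GF 3 and lowest in GF 1. Leaving out GF 3 brought the pooled fold over FO to 396 for PRM1 (from 603 with all libraries; 95% counting interval 221 to 794), 517 for PRM2 (143 to 4280.5), 387 for PRM3 (69.0 to 15348), 701 for TNP1 (273 to 2574) and 232 for CCER1 (41.1 to 9219). With all libraries the pooled fold of TNP1 was 1118. All 8 calls remained without GF 3 and GF 4 (adjusted p up to 0.0128) and without FO 1 and GF 3 (up to 0.0150), the libraries that stand apart, and over all 18 alternatives the highest adjusted p was 0.0177.

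Within the GF group, all 8 genes varied more than most genes of a like level, BRDT least so. The SD of log2 CPM over the 4 libraries was 2.41 for CCER1, 2.06 for PRM3, 1.89 for PRM2, 1.73 for TNP2, 1.71 for TNP1, 1.56 for PRM1 and 1.51 for HMGB4. Among tested genes with a mean GF level within a factor of 3 of each, 97.0% to 99.9% had a smaller SD. BRDT had an SD of 0.85, with 85.3% of like genes below it. From the lowest to the highest library the level differed 59.0-fold for CCER1 and 35.7-fold for PRM3, against 3.11-fold for BRDT.

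Ratios between the genes within a library do not depend on scaling. Their counting error is widest where TNP2 is part of them, with 13 and 28 counts in GF 1 and GF 4. TNP1 was counted 15.3, 10.97, 13.5 and 11.8 times as often as TNP2 in GF 1 to GF 4, with 95% Clopper-Pearson intervals that all overlap (8.75 to 29.3, 9.23 to 13.1, 11.4 to 16.1 and 8.03 to 18.1). TNP2 gave 0.0323, 0.0587, 0.0526 and 0.0662 counts for each count of PRM1, a 2.05-fold range with overlapping intervals. At these counts the overlap does not show that the ratios are level. How reads were assigned to genes is not given, so an order by counts may not be an order of transcript abundance. By counts, PRM1 was the highest of the 8 in all 4 libraries and TNP1 was above PRM2 in all 4. Further down the order, PRM2 was above BRDT in 2 of 4 libraries, and each later neighbour in the order of means (BRDT, HMGB4, PRM3, CCER1, TNP2) was above the next in 3 of 4. The order of these neighbours thus changed between libraries, and their differences were not tested.

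For other ratios, the intervals of some libraries did not overlap. These intervals take every read as an independent molecule, so they may be too narrow, and the differences were not tested. PRM2 gave 0.139 counts per PRM1 count in GF 1 (95% interval 0.103 to 0.184), 0.220 in GF 2 (0.1999 to 0.242), 0.308 in GF 3 (0.285 to 0.332) and 0.430 in GF 4 (0.360 to 0.513), and these 4 intervals do not overlap. PRM3 fell into a lower pair, at 0.0596 and 0.0720 per PRM1 count in GF 1 and GF 2, and a higher pair, at 0.192 and 0.213 in GF 3 and GF 4. The library with the most PRM1 was therefore not the one with the most PRM2 for each PRM1 count. TNP1 ranged from 0.494 per PRM1 count in GF 1 (0.415 to 0.587) to 0.783 in GF 4 (0.676 to 0.906).

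The remaining ratios singled out GF 1 and GF 3. BRDT gave 0.489 counts per PRM1 count in GF 1 (0.410 to 0.581), 0.269 in GF 2, 0.137 in GF 3 (0.123 to 0.152) and 0.319 in GF 4, so the GF library with the least of the 8 genes had the most BRDT for its PRM1. CCER1 stood at 0.198 per PRM1 count in GF 3 (0.180 to 0.217), against 0.0372, 0.0528 and 0.0709 in GF 1, GF 2 and GF 4, whose intervals reach at most 0.103. HMGB4 was at 0.154 and 0.146 in GF 1 and GF 3 and at 0.238 and 0.284 in GF 2 and GF 4. As shares of all counts of the 8 genes, PRM1 went from 31.6% (GF 4) to 41.6% (GF 1), BRDT from 4.99% (GF 3) to 20.3% (GF 1), and CCER1 from 1.55% (GF 1) to 7.21% (GF 3). GF 3 and GF 4 are the libraries with the lowest totals, GF 3 also holds muscle transcripts, and their part in these ratios was not tested.

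**Figure D2:**
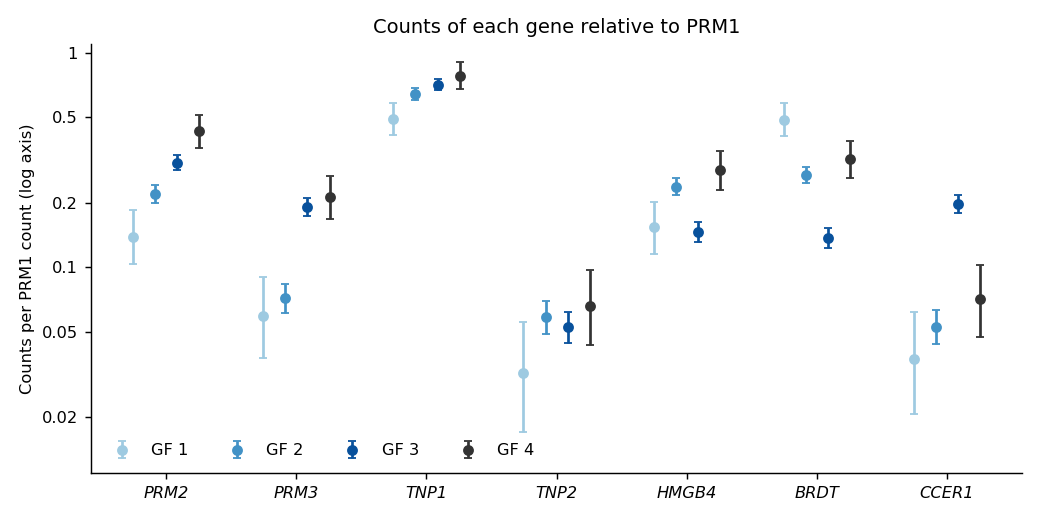
Counts of each gene for 1 count of PRM1 in GF 1 to GF 4, on a log axis. Points are single libraries and bars are 95% Clopper-Pearson intervals, which cover counting error only. TNP2 intervals overlap between libraries, PRM2 intervals do not, BRDT is highest in GF 1 and CCER1 in GF 3.

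**Figure D3:**
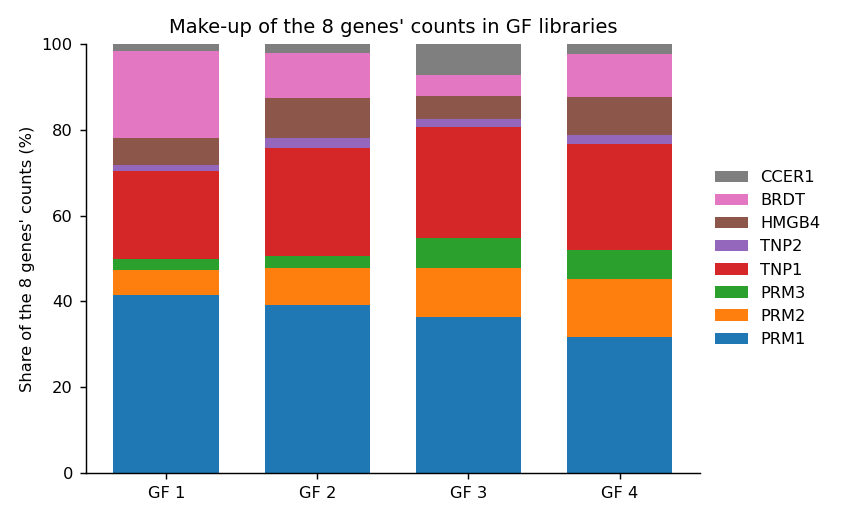
Share of each gene in the counts of the 8 genes together, in percent, for each GF library. PRM1 is the largest part in every library, from 31.6% in GF 4 to 41.6% in GF 1, BRDT takes 20.3% in GF 1 and CCER1 7.21% in GF 3.

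Summed markers of germ cell stages had narrower ranges between the GF libraries than the sum of these 8 genes, a difference that was not tested. Single spermatid markers ranged widely too, with ODF1 from 4.50 to 77.0 CPM and SMCP, a protein of the sperm mitochondrial capsule, from 0.691 to 26.9 CPM over the GF libraries. Summed over the 8 genes, the level was 12.7 times as high in the highest GF library as in the lowest. The same ratio was 5.14 for 8 round spermatid markers, 3.81 for 7 elongating spermatid markers, 2.24 for 7 spermatocyte markers and 1.47 for 8 spermatogonia markers. For each spermatocyte marker count there were 0.663, 2.11, 3.74 and 1.44 counts of the 8 genes in GF 1 to GF 4, and for each spermatogonia marker count 0.435, 2.02, 4.05 and 0.662, with GF 1 lowest and GF 3 highest in both. The spermatogonia markers summed to 322 to 398 CPM in FO, which is labelled as fibroblast, and NANOS2, one of their defining genes, was at 0 in all libraries. Round spermatid markers summed to 49.9 to 257 CPM in GF against 1.26 to 1.91 CPM in FO, where ACRV1, SUN5, TSSK1B and CAPZA3 were at 0. Elongating spermatid markers summed to 69.0 to 263 CPM in GF and 2.51 to 4.35 CPM in FO, where ODF1, GAPDHS, SMCP, CABS1 and GK2 were at 0.

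Relative to control testis, BRDT differed from the rest. BRDT had 25.7 and 19.5 CPM in the control libraries, so that GF, at 84.2 ± 46.3 CPM, was higher by 1.90 ± 0.53 on the log2 scale (edgeR adjusted p = 0.0183). PRM1, PRM2, PRM3 and CCER1 had 0 counts in both control libraries. Against 3 counts over the 2 libraries they were at least 1588-fold, 428-fold, 216-fold and 191-fold higher in GF (edgeR adjusted p = 5.26e-04, 9.01e-04, 0.00220 and 0.00605). TNP1 had 2 and 1 counts in control testis and was 1070.0-fold higher in GF (95% counting interval 366 to 5191, edgeR adjusted p = 4.36e-04). HMGB4 had 1 and 0 counts and was 919-fold higher (165 to 36333, edgeR adjusted p = 2.89e-04). TNP2 had 5 and 1 counts, the most after BRDT, and was higher in GF by 5.44 ± 1.31 (edgeR adjusted p = 0.0128). All 8 genes were called higher in GF, where 14.0% of 15877 tested genes were, and for all 8 the GF libraries lay above both control libraries, as for 21.9% of tested genes. Apart from BRDT, the genes passed the filter on low counts only through the GF libraries here too.

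These calls rest on 2 control libraries. Without control 1 or without control 2, the calls of BRDT (adjusted p = 0.106 and 0.187), TNP2 (0.0652 and 0.132) and CCER1 (0.0560 and 0.0659) were lost, while PRM1, PRM2, PRM3, TNP1 and HMGB4 remained called (adjusted p up to 0.0328). CCER1 was also not called without the filter on low counts (0.0605), nor BRDT when only GF and control libraries entered the fit (0.0541). With 1 control library the bounds were smaller, at 828-fold and 759-fold for PRM1, 224-fold and 205-fold for PRM2, 113-fold and 104-fold for PRM3 and 99.4-fold and 91.1-fold for CCER1. TNP2 was 136-fold higher without control 1 (95% counting interval 24.2 to 5377) and 24.9-fold without control 2 (10.6 to 77.1). Without control 1, TNP1 was 1675-fold (300.5 to 66177) and HMGB4 at least 159.9-fold higher, and without control 2 HMGB4 was 439.5-fold higher (78.7 to 17374). Without GF 3, PRM1 was at least 1043-fold, PRM2 at least 248-fold, PRM3 at least 92.6-fold and CCER1 at least 55.5-fold higher than control testis, and TNP1 670.5-fold (229 to 3254). The log2 value of TNP2 was 4.64 without GF 3 and 4.21 with the replicate number as a block, and its call was kept in both (adjusted p = 0.0209 and 0.0435).

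Between FO and control testis, BRDT was the gene that fell. FO had 3 counts of BRDT over 4 libraries and control testis 285 over 2, a 132-fold difference (95% counting interval 44.8 to 646), with a log2 fold change of -6.85 ± 0.71 (edgeR adjusted p = 4.44e-05). FO libraries lay below both control libraries, as was so for 32.0% of the 15877 tested genes. Of all 15877 tested genes, 10.6% were called lower. Without FO 2 the value was -7.78. The other 7 genes did not pass, where 18.7% of all tested genes were called in either direction (lowest adjusted p = 0.193, for TNP2, with 0 counts in FO and 6 in control testis). All 4 FO libraries were below both control libraries for TNP2 as well. The remaining 6 genes had 0 to 11 counts over FO and 0 to 3 over control testis. These 7 genes entered the test only through the GF libraries in the same fit. At such counts, not passing does not show that FO and control testis are alike.

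Genes known to act on protamine and transition protein genes were examined from a list of 12 regulators, all of them in the table. Of 10 tested in GF versus FO, 6 rose and 4 did not pass, where 17.6% of all tested genes were called higher, and the median log2 fold change of the list was 1.04 against -0.02 over all tested genes. YBX2, which binds and stores germ cell mRNAs, stood at 134, 321, 1132 and 310.1 CPM in GF 1 to GF 4 and at 2.47 ± 0.956 CPM in FO. It rose by 7.57 ± 0.72 (edgeR adjusted p = 9.02e-05), and by 6.66 without GF 3. RFX2, a transcription factor of spermatids, rose by 4.10 ± 0.53 (adjusted p = 3.44e-04) and GTF2A1L, a germ cell form of a general transcription factor, by 2.95 ± 0.47 (adjusted p = 0.00104). YBX3, a relative of YBX2, rose by 1.37 and TBPL1, a relative of the TATA-binding protein, by 1.098. The TBPL1 call was lost when tested against a fold of 1.5 (adjusted p = 0.0611).

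CREM, the transcription factor known to switch on protamine and transition protein genes, showed a smaller difference than YBX2 or the 8 genes. It had 47.8, 95.9, 65.9 and 62.2 CPM in GF 1 to GF 4 and 42.4, 33.7, 28.3 and 45.8 CPM in FO 1 to FO 4, so every GF library lay above every FO library, and it rose by 0.86 ± 0.27 (edgeR adjusted p = 0.0326). Its call was lost without FO 1 (adjusted p = 0.0609), FO 2 (0.0892), FO 3 (0.0931) or GF 2 (0.0958) and without FO 1 and GF 3 together (0.0881), and over all alternatives the adjusted p ran from 0.0140 to 0.191. FHL5, its partner in germ cells, did not pass (log2 fold change 0.61, adjusted p = 0.543), nor did KDM3A, a histone demethylase, TAF7L or TARBP2. BOLL and SOX30 were left out of GF versus FO by the filter on low counts. BOLL had 149 counts over GF and 1 over FO, and SOX30 had 66 and 0. In GF versus control testis 5 of 12 tested regulators rose, as did 14.0% of all tested genes, with YBX2 higher by 5.14, RFX2 by 4.66 and GTF2A1L by 2.95, and 7 did not pass. Without GF 3 YBX2 was higher by 4.22. GTF2A1L was higher by 3.89 without control 1, and its call was lost without control 2 (2.35, adjusted p = 0.115). The call of CREM (0.98, adjusted p = 0.0447) was lost in 9 of 16 alternatives, with adjusted p up to 0.344.

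The list of genes for histone removal, histone marks and phosphorylation in spermatids had a lower median. Of its 16 genes, 15 were in the table and 12 were tested in GF versus FO, of which 3 rose, 1 fell and 8 did not pass, with a median log2 fold change of 0.57. For the called genes the background is 17.6% higher and 13.0% lower. PHF7, a ubiquitin ligase and histone reader of spermatids, rose from 0.779 ± 0.338 CPM in FO to 312, 818, 384 and 175 CPM in GF 1 to GF 4, by 9.01 ± 0.60 (edgeR adjusted p = 2.12e-05). Unlike the 8 genes, PHF7 was highest in GF 2 and lowest in GF 4. CHD5, a chromatin remodeller, had 18.6, 32.1, 233 and 34.2 CPM in GF 1 to GF 4 and rose by 2.64 ± 0.71 (adjusted p = 0.0157), by 1.13 without GF 3 and by 1.82 with the replicate number as a block, and its call was lost without FO 1 (adjusted p = 0.0565) and without FO 1 and GF 3 (0.102). The methyltransferase DOT1L rose by 1.77 and EPC1, a subunit of the KAT5 acetyltransferase complex, fell by 0.90, a call that was lost when tested against a fold of 1.5 (adjusted p = 0.0869). RNF8, a ubiquitin ligase that acts on histones, stood at 23.4 ± 2.16 CPM in FO and 34.2 ± 4.38 CPM in GF, which did not pass the test (adjusted p = 0.108; 0.0498 without GF 3 and GF 4). TSSK6, a kinase of spermatids, had 8 counts in GF 2 and 0 in the other 9 libraries. In GF versus control testis 4 of 13 tested genes rose and 9 did not pass, where 14.0% of all tested genes were called higher. Among the 4, PYGO2 rose by 1.96 and HSPA2 by 1.63 (edgeR adjusted p = 4.66e-04 and 0.0204). Both were also called higher in FO versus control testis, by 1.38 and 1.399 (adjusted p = 0.00423 and 0.0480). In that comparison PHF7 was called lower (-3.12) and CHD5 did not pass (adjusted p = 0.413). In GF versus control testis PHF7 was higher by 5.90 and CHD5 by 3.71 (2.21 without GF 3). The CHD5 call was lost without control 1 (adjusted p = 0.0994), without control 2 (0.119) and with only the compared groups in the fit (0.0582).

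**Figure D4:**
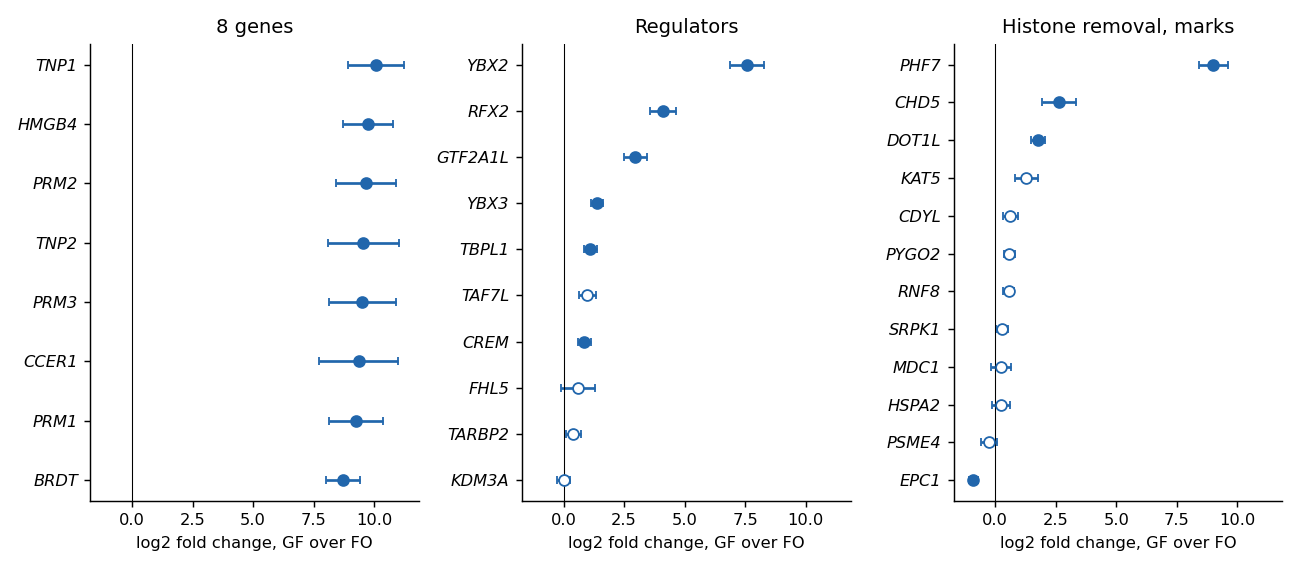
Log2 fold change of GF over FO for the 8 genes (left), regulators of protamine and transition protein genes (middle) and genes of histone removal, marks and phosphorylation (right). Points are edgeR estimates, bars are SE, and filled points had an adjusted p under 0.05. Estimates for genes with 3 counts or fewer in FO (all of the 8 except PRM1 and TNP1) depend on the prior count of the fit. YBX2, RFX2 and PHF7 stand out among the regulators and histone genes.

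A list of 10 testis histone variants, such as the linker histone H1-6, could not be matched by name to the rows and was not analysed here.

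The genes beside the 8 on the chromosome differed less than the 8 did. The 3 nearest named protein-coding genes on each side of every locus gave 30 neighbours, all in the table. Of 23 tested in GF versus FO, 5 rose, 3 fell and 15 did not pass, where 30.5% of all tested genes were called, and their median log2 fold change was -0.11. Around the protamine cluster, SOCS1, a suppressor of cytokine signalling that begins 7.61 kb past TNP2, differed by 0.42 ± 0.79 (adjusted p = 0.717) and RMI2, 46.2 kb before PRM1, by -0.11 ± 0.45 (adjusted p = 0.872). CLEC16A, 66.6 kb past TNP2, rose by 0.90 ± 0.24 (edgeR adjusted p = 0.0137; 0.0646 without FO 1 and GF 3, and 0.124 against a fold of 1.5), and LITAF, SNN and DEXI did not pass. CSMD2, within whose span HMGB4 lies, differed by 0.17 ± 0.36 (adjusted p = 0.744). The highest values were those of C6H1orf94, 305 kb past HMGB4, which rose by 4.65 ± 0.56 (adjusted p = 2.56e-04), and C4H1orf146, 162 kb before BRDT, which rose by 4.24 ± 0.63 (adjusted p = 7.07e-04). Among the other neighbours, PHC2 (0.87) near HMGB4 and LUM (2.25) near CCER1 rose, and RPL37A (-1.74) and IGFBP5 (-1.65) near TNP1 and TGFBR3 (-1.62) near BRDT fell. The LUM call was lost without any 1 of FO 1, FO 2, FO 4, GF 1 or GF 2 (adjusted p up to 0.115), as well as without GF 3 and GF 4, without FO 1 and GF 3 or against a fold of 1.5, and LUM was higher by 3.47 without FO 3. The PHC2 call was lost without FO 1, FO 2 or GF 2 (up to 0.0801) and against a fold of 1.5 (0.171), and that of RPL37A without FO 1 and GF 3 (0.0693).

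**Figure D5:**
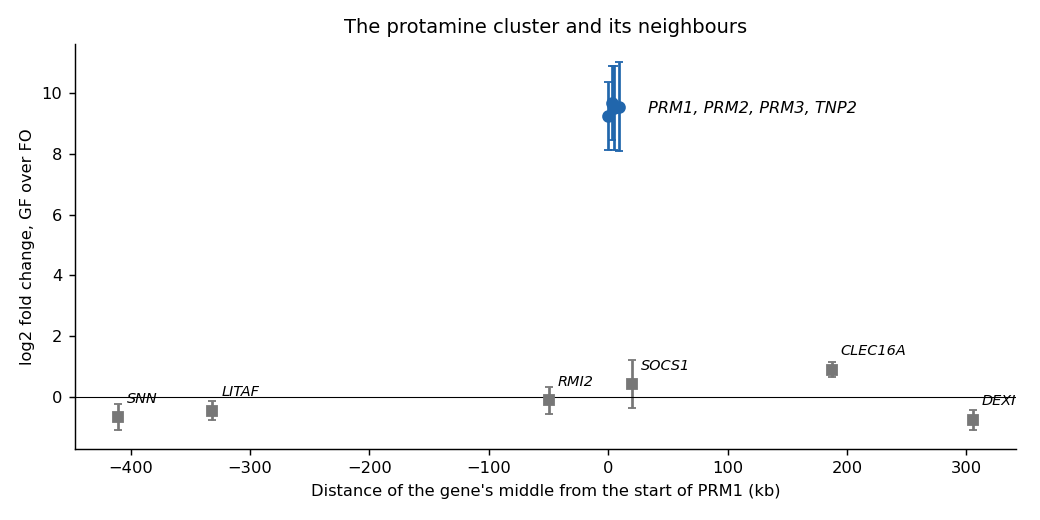
Log2 fold change of GF over FO for PRM1, PRM2, PRM3 and TNP2 (circles) and the 3 nearest named protein-coding genes on each side (squares), against the distance of the gene's middle from the start of PRM1 in kb. Bars are SE. The 4 genes of the cluster lie between 9.24 and 9.67, and their 6 neighbours between -0.75 and 0.90. PRM2, PRM3 and TNP2 had 2, 1 and 0 counts in FO. Their estimates depend on the prior count of the fit, so the narrow range is not a measured likeness.

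Among 9214 other named genes with a mean of at least 10 CPM in GF, those whose log2 CPM over the 10 libraries was most like the mean of the 8 genes were TULP2 (Pearson r = 0.994), LELP1 (0.993), HRASLS5 (0.992), ODF1 (0.992), HSPB9 (0.991), LEP (0.991), ACR (0.990) and PRSS37 (0.988). These values are descriptions over 10 libraries that share group and depth. ODF1, a protein of the sperm tail, had 21, 228, 223 and 35 counts in GF 1 to GF 4 and 0 in FO and control testis. ACR, the acrosomal protease acrosin, had 113, 396, 534 and 110 counts, with 1 in FO and 2 in control testis. LEP, the row named for leptin, had 34, 73, 130 and 32 counts in GF, 0 in FO and 2 in control testis. Of the 8 genes themselves, each correlated with the mean of the other 7 at r = 0.971 to 0.995, other than BRDT at 0.781.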

How the data were processed

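The authors deposited whole-number raw counts per gene name, made from QuantSeq 3′ libraries of Trizol-extracted polyA RNA, per the labels' protocols. According to the submitters' processing notes the build was Sscrofa11.1 and DESeq2 1.42.0 was among the tools. Aligner, counter and strand setting: not given in the sources used here. Titles gave the groups, F columns were read as FO, and the labels name no batch.

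After filterByExpr (minimum count 10) and TMM scaling, all remaining genes were tested with the quasi-likelihood F test of edgeR 4.0.16 with robust estimation in R 4.3.3. A call means a Benjamini-Hochberg adjusted p below 0.05. The 8 graft libraries entered GF versus FO, and all 10 libraries entered 1 fit for both comparisons with control testis. Log2 CPM had a prior count of 2. A group at 0 was set to 3 counts over the group, and 1 to 3 counts gave a ratio with an exact 95% interval. The tests were run on simulated counts with smaller changes and the same spread for every gene. That setting differs from the 8 genes, so it does not bear on their calls. RefSeq names of Sscrofa11.1 were found for 26836 rows.

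The 8 genes and the lists were chosen with earlier results of these data known. Named were the 8 genes, up to 6 called genes of each list plus CREM, RNF8, CHD5, TSSK6 and YBX2, the neighbours by position and the 8 genes most alike; other named members of the lists, such as FHL5, were picked after their values were seen. Nothing states that replicate numbers in the titles pair GF with FO, and the main fits used no replicate block. Deviations of same-numbered GF and FO libraries from their group means correlated at 0.103, 0.256, 0.116 and 0.112 over genes. GF 1 and GF 4 correlated best with another number, at 0.130 (FO 2) and 0.148 (FO 3). A pairing is therefore not established, and the block was used only as an alternative. Alternatives were the DESeq2 Wald test, RLE or total counts as scaling, no filter, testing against a fold of 1.5, edgeR that is not robust, the replicate block, other libraries in the fit, and leaving out libraries.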

Additional observations from a re-analysis of the deposited data

Results flagged for a closer look

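In a group of 4, a library is given here where its gap to the nearest other library, as a share of the group's range, was above Dixon's 95% critical value, which chance gives in about 1 in 20 groups. FO 1 stood apart for PRM1 (2.79 CPM, 10 counts), TNP1 (1.11 CPM, 4 counts), PRM2 (0.557 CPM, 2 counts) and PRM3, HMGB4 and CCER1 (0.279 CPM, 1 count each), and for the 8 genes summed (5.30 CPM). Where the other 3 libraries are at 0, a single count is enough for this. GF 3 stood apart for PRM3 (184 CPM) and CCER1 (189.5 CPM). Summed marker genes stood apart in FO 4 for spermatocytes (60.0 CPM) and for skeletal muscle in FO 1 (574 CPM) and GF 3 (121 CPM). In FO 4, MEIOB alone gave 56.2 of the 60.0 CPM, while SYCP1 and SYCP3 had 5 and 1 counts. Mean MEIOB levels were alike in all groups, at 40.0 CPM in control testis, 40.8 in FO and 42.2 in GF.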

How the results depend on the processing

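In GF versus FO all 8 genes kept call and direction under all 18 alternatives, and in GF versus control testis 120 of 128 values did, with 5 to 8 genes called when single libraries were left out. BRDT in FO versus control testis kept its call in all 16. Over all genes, 4205, 4091 and 2972 were called in GF versus FO, GF versus control testis and FO versus control testis. Against a fold of 1.5 there were 2456, 2658 and 1833. GF versus FO gave 2312 without FO 1 and GF 3. With the compared groups only, the comparisons with control testis gave 2201 and 6600, and FO versus control testis gave 6510 without GF 3 and GF 4. Leaving out single libraries gave 2902 to 4842, 1141 to 4729 and 796 to 2263, with the low ends of both comparisons with control testis without control 2 (without control 1, 1395 and 977). With total counts as scaling, 69.1% of GF versus FO calls were higher, against 57.5%, and the median of all genes moved from -0.02 to 0.13 on the log2 scale. Of the 11 ratios in GF, PRM2 to PRM3 moved by more than its SD between libraries, from 1.98 to 2.97 without GF 3 and GF 4, and ranged from 1.69 to 2.67 with single GF libraries left out. With the replicate number as a block, 4335, 3282 and 3219 genes were called, and of 50 values of named genes 1 changed its call, CREM in GF versus control testis. The labels give no pairing of control libraries with grafts beyond the number (correlations -0.0439 to 0.0550). Depth limits the values in FO and control testis, where most of the 8 genes had 0 to 3 counts.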
